A study of Mus musculus with 19 samples.

Results

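Microglia taken from adult mice that carry a human amyloid precursor protein transgene (APP) were compared with microglia from wild-type (WT) mice, both kept in culture and given vehicle only. The comparison holds 9 of the 19 RNA libraries of the study, chosen by their titles: 5 APP vehicle libraries and 4 WT vehicle libraries. With 14113 of the 16941 listed genes tested, edgeR's quasi-likelihood test called no gene after correction for multiple testing (0%). limma voom also called 0, and DESeq2 called 64, all of them under 20 CPM. Genes with a mean of at least 20 CPM (a library's count of the gene scaled to a common library total) over the 9 libraries are weighed here apart from sparser ones, because their differences were far better measured.

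The APP mice were of the hAPPJ20 line, in which the PDGF promoter drives human APP with the Swedish and Indiana mutations, and all mice were C57BL/6. Cells came from the cortex at 10 to 11 months of age and were cultured for 4 weeks with 10% serum and M-CSF, a macrophage growth factor, at 5 ng/mL. Vehicle was medium alone for 6 h, followed by 16 h in fresh medium. The 10 other libraries, 5 APP and 5 WT, received 100 ng/mL of lipopolysaccharide (LPS), a bacterial activator of Toll-like receptor signalling, for the same 6 h. No label ties a library to an animal or a culture, and p-values therefore measure the spread between libraries, some of which may be technical.

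Microglia are the resident macrophages of the brain. In mice that deposit amyloid, those near plaques are known to leave the homeostatic state, marked by P2ry12 and Tmem119, and to take on a disease-associated state with high Apoe, Trem2, Lpl, Cst7, Itgax, Clec7a and Spp1. Trem2 is a lipid-sensing receptor that signals through Tyrobp, and Apoe is a carrier of lipids between cells. APP is cut by secretases, of which Bace1 and gamma-secretase, with its subunit Psen2, act on the path to amyloid beta, while Adam10 cuts within it.

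The vehicle libraries held 17712123 to 31248988 counts in WT and 18990298 to 25502823 in APP. Counts are of 3′ ends of transcripts, and a gene with 0 counts in a library is bounded by a floor of 3 counts, 0.0963 to 0.167 CPM here, for counting error only. Myeloid transcripts were present in every library: Csf1r ranged from 68.6 to 343 CPM, Aif1 from 82.1 to 672 CPM and C1qa from 220 to 947 CPM. P2ry12 was at 0 in WT replicate 4 and APP replicate 5, and Tmem119 at 0 in WT replicate 3 and APP replicate 3, and in no vehicle library did either pass 28.6 CPM. WT replicate 4 and APP replicate 5, which carry the library numbers 57 and 59, were the lowest in Csf1r, Aif1 and Cd68 within their groups. Gene list counts that move by 1.5 times or more without them are given both ways; the fits without them also leave out the LPS libraries numbered 58 and 60. In bulk RNA, fewer cells of a type and less RNA per cell cannot be told apart. Transcripts of the Y-linked gene Ddx3y marked 2 of 4 WT and 2 of 5 APP vehicle libraries as male.

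The libraries did not sort by genotype. Over the 6224 genes of at least 20 CPM, Spearman's correlation of log2 CPM between an APP and a WT library had a median of 0.836 over 20 pairs, against 0.820 over the 10 pairs within APP and 0.815 over the 6 pairs within WT. For 8 of the 9 libraries, the most similar library was one of the other genotype. WT replicate 3 was nearest to APP replicate 4 (0.917), WT replicate 4 to APP replicate 5 (0.909), WT replicate 1 to APP replicate 3 (0.885) and WT replicate 2 to APP replicate 1 (0.884), each pair being nearest in both directions. Only APP replicate 2 was nearest to its own genotype, at 0.869 with APP replicate 1.

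Library numbers in the labels were looked at as a possible order of preparation, which no label states. Pairs within 1 range of library numbers (3 to 21, or 41 to 59) had a median correlation of 0.846 over 16 pairs, and pairs across the ranges one of 0.802 over 20 pairs. Each range holds both genotypes, with 3 APP and 2 WT libraries in the lower range and 2 and 2 in the higher one. These correlations describe libraries that share genes and depth and carry no test.

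**Figure D1:**
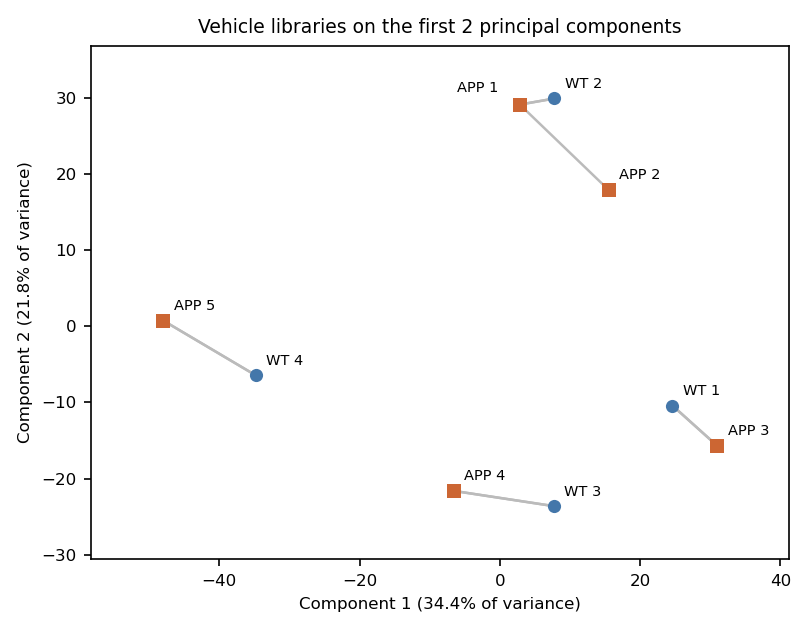
Vehicle libraries on the first 2 principal components of log2 CPM over 6224 genes, with WT libraries as blue circles, APP libraries as orange squares and a grey line from each library to its most similar one. Component 1 (34.4% of the variance) sets WT replicate 4 and APP replicate 5 apart at −34.8 and −48, and both genotypes stand at each end of component 2 (21.8%).

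App, the mouse gene for the precursor protein, gave nearly the same mean in both genotypes. App (GRCm38 chromosome 16, 84949685 to 85173766, minus strand, by the GENCODE M21 annotation) stood at 1479, 2216, 1312 and 1742 CPM in WT replicates 1 to 4 and at 1751, 1673, 1242, 1487 and 2090 CPM in APP replicates 1 to 5. The ranges overlap almost wholly, and the log2 difference was −0.03 ± 0.22 (SE), with a 95% interval of −0.50 to 0.43. App counts do not check the genotype labels, because it is not known here if transgene transcripts were assigned to App. The sign of this small difference held in 23 of 28 settings. By prior knowledge the J20 transgene sits in Zbtb20, a transcription factor gene also on chromosome 16 (42875881 to 43642602, plus strand). Zbtb20 was at 248, 278, 206 and 196 CPM in WT and at 392, 141, 247, 156 and 214 CPM in APP, with a log2 difference of −0.01 ± 0.29. Of 12 genes of at least 20 CPM around Zbtb20, 6 were higher and 6 lower in APP, with a median log2 difference of 0.02.

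Genes that process APP overlapped between genotypes. Bace1, the beta-secretase, stood at 24 ± 10.2 CPM in WT (SD, n = 4) and 27.1 ± 19.2 CPM in APP (SD, n = 5). Psen2, a catalytic subunit of gamma-secretase, differed by 0.14 ± 0.33 on the log2 scale. Adam10, the main alpha-secretase, was at 172 ± 34.2 CPM in WT and 190 ± 34.9 CPM in APP. Aplp2, a relative of APP, stood at 255, 255, 213 and 175 CPM in WT and 206, 140, 210, 219 and 120 CPM in APP, a log2 difference of −0.33 ± 0.22. Among 14 genes of this group with at least 20 CPM, 7 were higher and 7 lower in APP, and for 12 of the 14 the 95% interval lay within 2-fold in both directions.

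Precision set what this comparison could show. Among the 6224 genes of at least 20 CPM, which held 94.9% of the CPM, the median 95% interval reached 0.68 to each side on the log2 scale, a factor of 1.60. For 4024 of them (64.7%) the whole interval lay between −1 and 1, so that a 2-fold difference lies outside the interval. Among the 7889 genes under 20 CPM the interval reached 2.93 to each side, a factor of 7.64. In those sparse genes 3153 (40%) had 3 or fewer counts in some vehicle library and 100 or more in another, against 40 (0.643%) of the more abundant genes.

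Differences were small in most of the abundant genes. TMM scaling centres the differences, so the balance of signs is no result in itself. Of the 6224 genes, 3090 were higher and 3134 lower in APP, with a median log2 difference of −0.002 and a median size of 0.16. Unadjusted p-values under 0.05 from edgeR's quasi-likelihood test were found for 402 of 14113 genes (2.85%). The share was 67 of 6224 (1.08%) at 20 CPM or more and 335 of 7889 (4.25%) below. With no difference in any gene, a calibrated test would put a share of about 0.05 there. The shares found lie below that, so these p-values may be cautious, and the lack of calls does not show equal levels. The smallest adjusted p over all genes was 1. A log2 difference of at least 1 was reached by 24 abundant genes (0.386%), and one of −1 or less by 7 (0.112%), whereas 2260 of the sparse genes (28.6%) reached 1 in either direction. The 20 CPM mean is taken over 5 APP and 4 WT libraries, so a gene can pass it through the group where it is high. Sox9 had means of 12.3 CPM in WT and 36.6 CPM in APP, and Tigar of 32.6 CPM in WT and 13.6 CPM in APP. The counts of 24 and 7 are therefore not weighed against each other. Of the 24, 7 drew most of their summed CPM from 1 library, such as Igfbp5, a binder of insulin-like growth factors named after its values were seen, with 340 CPM in APP replicate 5, 123 CPM in APP replicate 1 and 0.96 to 29.6 CPM elsewhere. The log2 difference of Igfbp5 was 2.61 ± 1.34 with vehicle and 3.16 with LPS.

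**Figure D2:**
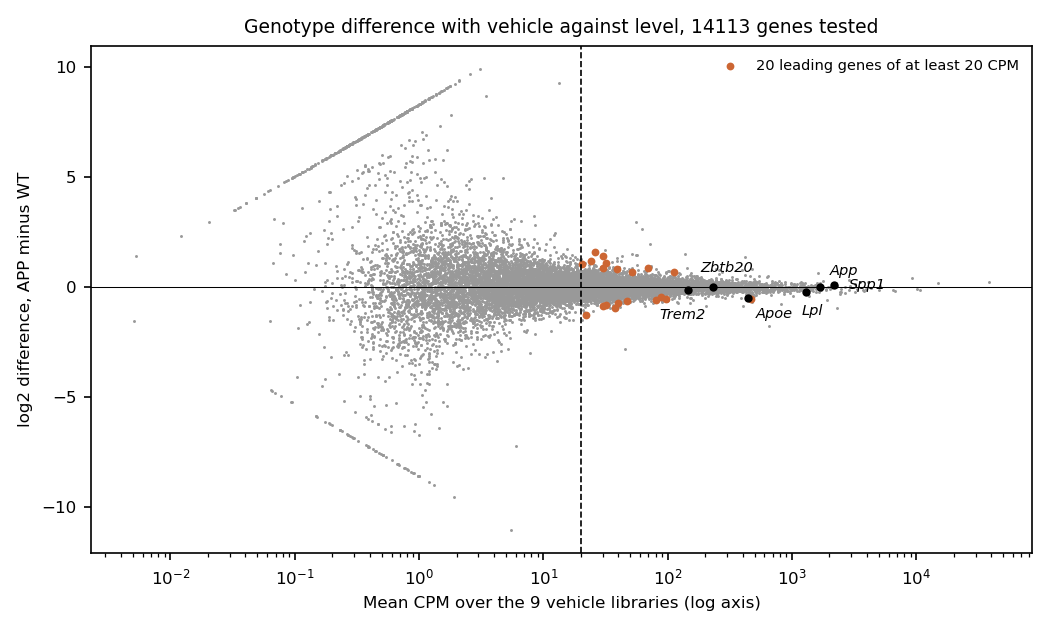
The log2 difference between APP and WT with vehicle (y axis) against the mean CPM over 9 libraries (x axis, log scale) for 14113 genes, with the 20 CPM line dashed, 20 leading genes in orange and 6 named genes in black. The spread narrows to the right of the line, and the straight streaks at low CPM are genes at or near 0 counts in 1 genotype.

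Among genes of at least 20 CPM, the smallest p in the higher direction belonged to Slc25a1, the mitochondrial citrate carrier that supplies carbon for lipid synthesis. Slc25a1 was at 16.7, 18.2, 12.9 and 15.1 CPM in WT and at 55.9, 67.2, 39.1, 16.2 and 27.5 CPM in APP. APP replicate 4 lay among the WT values and the other APP libraries lay above them all, and the log2 difference was 1.39 ± 0.38 (unadjusted p = 0.00144, adjusted p = 1 in edgeR's quasi-likelihood test). With LPS the same gene was at 18.7 to 41.3 CPM in WT and 19.8 to 38.4 CPM in APP, a difference of −0.07 ± 0.35, and the interaction term between genotype and LPS was −1.46 ± 0.51 (unadjusted p = 0.00947, adjusted p = 1). Within the library numbers 3 to 21 the vehicle difference was 1.64, and within 41 to 59 it was 0.64.

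Lrrc14, a leucine-rich repeat protein, followed at 17.2, 21.8, 11.2 and 27.7 CPM in WT and 50.7, 44.8, 42.9, 21 and 48.2 CPM in APP. Again APP replicate 4 alone lay within the WT range. Sox9, a transcription factor of astrocytes and connective tissue cells, was at 12.5, 17, 10.4 and 9.33 CPM in WT and at 54.6, 22.4, 19.8, 15.6 and 70.4 CPM in APP, a log2 difference of 1.57 ± 0.49. The ranges overlap at APP replicate 4, and the highest values were in APP replicates 1 and 5. Gja1, a gap junction gene of the same cell types, was at 10.1, 25.3, 37 and 57.6 CPM in WT and at 55.8, 30.2, 22.8, 30.1 and 84 CPM in APP, and the part of such cells in the Sox9 difference was not tested. With LPS, Sox9 differed by 0.94 ± 0.45, and without the libraries numbered 57 to 60 the vehicle difference was 1.08.

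Ranges that did not overlap were rare. At 20 CPM or more, 18 genes (0.289%) lay wholly higher and 21 (0.337%) wholly lower in APP, with 49 (0.621%) and 31 (0.393%) among the sparse genes. With so few libraries, ranges can also lie apart by chance. These shares were not weighed against the share from chance. Separate ranges are therefore no sign of a difference by themselves and are given here as a description only. Slc20a1, a phosphate importer, was at 74.1, 92.5, 76.4 and 92.2 CPM in WT and at 118, 132, 137, 111 and 180 CPM in APP (log2 difference 0.69 ± 0.24). Cyp20a1, an orphan member of the cytochrome P450 family, was at 54, 67.8, 38.5 and 34.1 CPM in WT and at 75.9, 91.9, 108, 82.7 and 77.1 CPM in APP. Lemd2, a protein of the inner nuclear membrane, was at 8.59 to 20.3 CPM in WT and 21.3 to 35.6 CPM in APP. The highest WT value of each of these 3 genes lay below its lowest APP value, and with LPS their differences were −0.20, −0.19 and 0.08.

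The other leading genes on the higher side overlapped between groups. They were Cemip2, a cell surface protein linked to hyaluronan (0.80 ± 0.31), Ndn, an imprinted growth regulator (1.19 ± 0.48), Cd2bp2, a spliceosome component (0.87 ± 0.35), and Tmem248 (0.66 ± 0.27), all as log2 differences. Ndn illustrates their spread, with 6.45, 24.9, 11.9 and 13.2 CPM in WT and 38.6, 51.8, 22.2, 20.6 and 27.4 CPM in APP.

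On the lower side the smallest p was that of Tfb2m, a factor that starts transcription of the mitochondrial genome. Tfb2m was at 51.4, 47.9, 26.7 and 36.5 CPM in WT and at 26.1, 20, 24, 22.3 and 17.3 CPM in APP. WT replicate 3 and APP replicate 1 nearly touch, and the log2 difference was −0.89 ± 0.27 (unadjusted p = 0.00338, adjusted p = 1 in edgeR's test). With LPS it was −0.03 ± 0.26. Of 13 transcripts of the mitochondrial genome, 10 were higher in APP with vehicle (median log2 difference 0.14) and 7 with LPS (0). Their summed level was 31166 to 40019 CPM in WT and 26361, 49982, 34029, 55237 and 24834 CPM in APP replicates 1 to 5. APP replicates 1 and 5 thus lay below every WT library, and APP replicates 2 and 4 above them all. A link between these transcripts and Tfb2m was not tested.

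Uqcrq, a subunit of respiratory complex III, and Sox9 were the only ones of the 20 leading genes with an unadjusted p under 0.05 in both treatments. Uqcrq stood at 512, 625, 548 and 566 CPM in WT and at 376, 358, 300, 374 and 514 CPM in APP with vehicle. Only APP replicate 5 reached the WT range, and the log2 difference was −0.55 ± 0.19. With LPS, Uqcrq was at 588, 525, 518, 457 and 449 CPM in WT and at 332, 263, 336, 410 and 480 CPM in APP, a difference of −0.48 ± 0.18 (unadjusted p = 0.0156, adjusted p = 1). The interaction term was 0.07 ± 0.26. Within the vehicle libraries numbered 3 to 21 the difference was −0.72, and within those numbered 41 to 59 it was −0.33.

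Nuclear-encoded subunits of oxidative phosphorylation lay on both sides of 0. Of 39 at 20 CPM or more, Uqcrq included, 13 were higher and 26 lower in APP, with a median log2 difference of −0.07, and with LPS 17 were higher, with a median of −0.01. Ndufa4, a cytochrome oxidase subunit, differed by −0.64 ± 0.29 with vehicle and by 0.48 with LPS. For 35 of the 39 the 95% interval lay within 2-fold.

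Tigar, which diverts glucose carbon toward the pentose phosphate pathway, was at 41.6, 35.2, 19.7 and 34 CPM in WT and at 22.8, 17.5, 3.76, 13.5 and 10.4 CPM in APP. Its log2 difference was −1.26 ± 0.47 with vehicle and −0.70 ± 0.44 with LPS. Snap29, a SNARE protein that helps autophagosomes fuse with lysosomes, was at 56.8, 49.8, 67.1 and 63.1 CPM in WT and at 38.3, 38.8, 39.6, 47.2 and 24.6 CPM in APP, and the ranges did not overlap. Phax, an adaptor for export of small nuclear RNA, was at 97.8 to 110 CPM in WT and at 59.2 to 83.6 CPM in APP, also apart. Their log2 differences were −0.65 ± 0.25 and −0.46 ± 0.18 with vehicle and −0.34 and −0.03 with LPS.

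Dhrs7, a short-chain dehydrogenase, and Cnpy2, an endoplasmic reticulum protein, were the remaining leading genes with separate ranges, at −0.55 ± 0.21 and −0.58 ± 0.23. Arhgap10, a GTPase activating protein, differed by −0.96 ± 0.36, but WT replicate 1 alone stood at 88 CPM against 32.3 to 44.4 CPM in the other WT libraries. Aff1, an elongation complex scaffold, and Rab20, a GTPase of phagosomes, differed by −0.73 ± 0.29 and −0.85 ± 0.34.

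**Figure D3:**
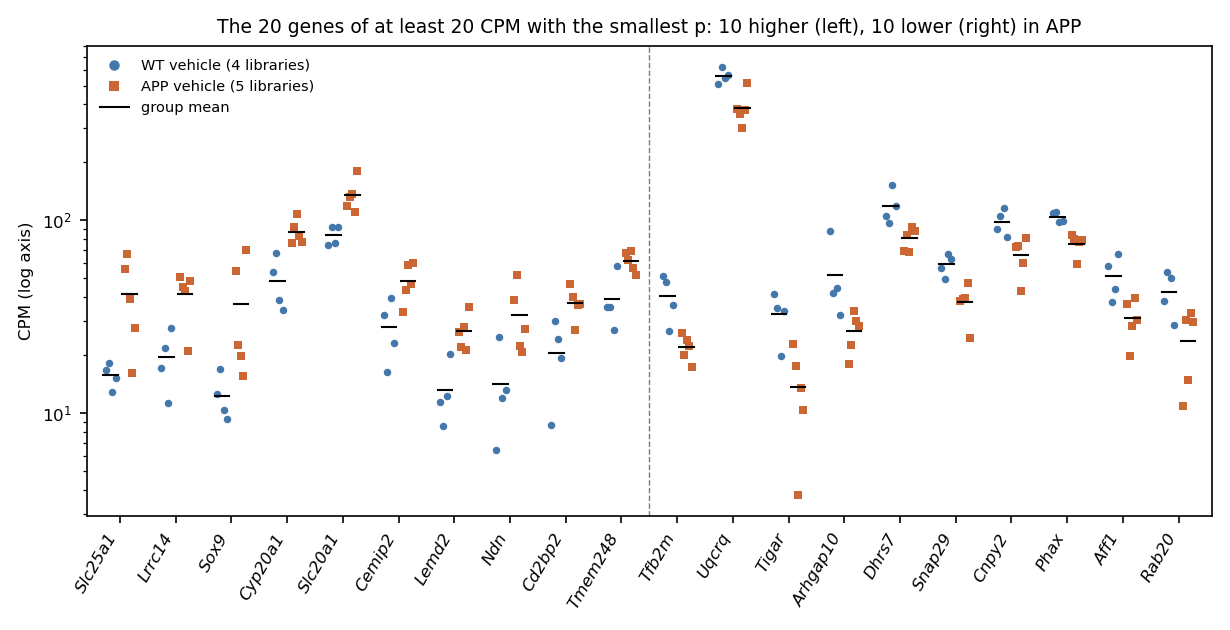
CPM (log axis) in each of 4 WT and 5 APP vehicle libraries for the 10 higher and 10 lower genes of at least 20 CPM with the smallest p, with black bars at group means. The ranges of the groups overlap for 12 of the 20 genes and do not for 3 of the higher and 5 of the lower genes.

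The LPS comparison uses other libraries, but it may not be independent. Each of the 9 vehicle libraries has an LPS library of the same genotype with the next number and the same sex by Ddx3y, and no label says whether they share an animal or a culture. The fit treated all 19 libraries as independent, and consecutive numbers were not fitted as pairs. The p-values of the interaction therefore leave out any such pairing. High values can recur in both: Cxcl5 was highest among APP libraries in replicate 5 with vehicle (428 CPM) and in replicate 5 with LPS (890 CPM), as was Top2a (135 and 162 CPM). Of the 20 leading genes, 11 had the same sign with LPS (55%), beside the 3518 of all 6224 abundant genes (56.5%). Of the 18 genes wholly higher in APP with vehicle 6 were higher with LPS, and of the 21 wholly lower 9 were lower. Across the 6224 genes, the 2 sets of log2 differences had a Pearson correlation of 0.18, a description only, because genes are not independent and both come from one fit. With LPS, 0 genes (0%) were called between genotypes and 482 (3.42%) had an unadjusted p under 0.05. For the interaction the counts were 0 (0%) and 385 (2.73%). Of the 14113 genes DESeq2 called 69 with LPS and 99 for the interaction, and limma voom 1 and 0.

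Disease-associated microglial genes showed no difference between genotypes beyond the spread between libraries. Of 49 members at 20 CPM or more, 18 were higher and 31 lower in APP, none was called, and the median log2 difference was −0.06. Within the library numbers 3 to 21, 20 were higher (median −0.07), and within 41 to 59 it was 11 (−0.37). For 24 of the 49 the 95% interval lay within 2-fold, and for the others a 2-fold difference is not excluded. Apoe was at 693, 593, 416 and 397 CPM in WT and at 412, 468, 400, 278 and 314 CPM in APP. WT replicates 1 and 2 exceed every APP library and WT replicates 3 and 4 lie among them, giving a log2 difference of −0.49 ± 0.26 (unadjusted p = 0.0709, adjusted p = 1 in edgeR's test). With LPS the Apoe difference was −0.50 (unadjusted p = 0.0526, adjusted p = 1), from 116 to 341 CPM in WT and 147 to 225 CPM in APP.

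Trem2 was at 197, 232, 138 and 51.6 CPM in WT and at 181, 220, 140, 133 and 18.6 CPM in APP, a log2 difference of −0.16 ± 0.58. Its partner Tyrobp was at 1426, 1034, 1142 and 415 CPM in WT and at 817, 1565, 1182, 1492 and 311 CPM in APP, a difference of 0.10 ± 0.52. In both genes the lowest WT value is that of replicate 4 and the lowest APP value that of replicate 5, and the 95% interval of Trem2 ran from −1.36 to 1.04. Spp1, which encodes the secreted protein osteopontin, was tight in WT at 2027 to 2234 CPM and wider in APP at 1364 to 2775 CPM (0.09 ± 0.30). Lpl, a lipase of lipid uptake, ranged from 562 to 2007 CPM in WT and 188 to 2056 CPM in APP (−0.24 ± 0.60).

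Clec7a, a receptor for fungal glucans, was at 199, 81.8, 251 and 61.7 CPM in WT and at 95.9, 45.9, 171, 168 and 37.6 CPM in APP (−0.52 ± 0.63). Cst7, a cathepsin inhibitor, and Itgax, an integrin, stayed sparse in both genotypes, at no more than 13.8 and 5.15 CPM in any vehicle library. Atp6v0d2, a proton pump subunit, and Ccl6, a chemokine, had the largest negative differences of this group, −0.96 ± 0.50 and −0.95 ± 0.53. Ccl6 was at 2331, 2585, 4691 and 2879 CPM in WT and at 416, 1174, 855 and 1174 CPM in APP replicates 1, 2, 3 and 5, while APP replicate 4 stood at 4470 CPM.

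Homeostatic genes also had no called member. Of 28 at 20 CPM or more, 10 were higher and 18 lower in APP, with a median log2 difference of −0.11, and 10 of the 28 had an interval within 2-fold. Irf8, a transcription factor of the microglial lineage, was at 101, 79.2, 89.2 and 44.3 CPM in WT and at 54.6, 68.1, 56.6, 53.1 and 15 CPM in APP (−0.66 ± 0.43). Cx3cr1, the fractalkine receptor, was at 12.9 to 153 CPM in WT and 21.1 to 255 CPM in APP. P2ry12 was at 28.6, 10.4, 14.9 and 0 CPM in WT and at 2.61, 13.8, 16.5, 1.78 and 0 CPM in APP, with a 95% interval of the log2 difference from −4.30 to 2.38.

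**Figure D4:**
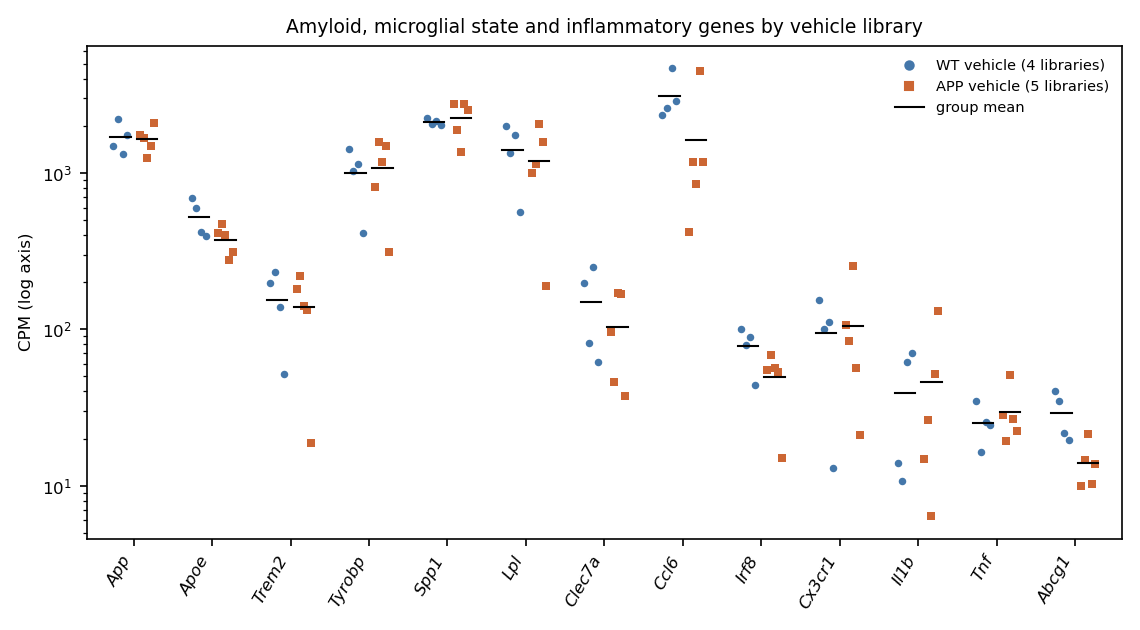
CPM (log axis) of amyloid, microglial state and inflammatory genes in each of 4 WT and 5 APP vehicle libraries, with black bars at group means. The groups overlap for all 13 genes, and the lowest Trem2, Tyrobp and Lpl points belong to WT replicate 4 and APP replicate 5.

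The remaining lists were described by the count and median of their members at 20 CPM or more, beside 49.6% higher and a median of −0.002 over all such genes. edgeR called no member of any of the 32 lists. DESeq2 called 2 of the 836 listed genes tested, beside 64 of all 14113 genes. These 2 were Cxcl9 and Scimp, at means of 3.46 and 0.197 CPM, with 6 and 8 of the 9 vehicle libraries at 0. Of 836 listed genes tested, 13 (1.56%) had an unadjusted p under 0.05, and of the 561 at 20 CPM or more, 6 did (1.07%). Those 6 were Sox9, Pik3r1, Abcg1, Uqcrq, Ndufa4 and Gsr, singled out after their values were seen. Pik3r1, the regulatory subunit of a lipid kinase below Trem2, was at 72.8 to 95.9 CPM in WT and 96.1 to 145 CPM in APP (0.50 ± 0.22). Gsr, which regenerates glutathione, differed by −0.49 ± 0.23. With LPS, Pik3r1 and Gsr differed by −0.18 and 0.06.

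Cholesterol synthesis and lipid efflux, linked through the sterol content of the cell, held no called gene. Of 14 synthesis genes, 12 were higher in APP with vehicle (median log2 difference 0.28) and 12 with LPS (0.22). Hsd17b7, a late enzyme of that pathway, was at 39.9, 28, 36.6 and 30.1 CPM in WT and at 87.1, 56.8, 53.2, 36.9 and 36.2 CPM in APP (0.68 ± 0.44). Srebf2, the transcription factor that drives the pathway, was at 27.7 to 54.9 CPM in WT and 33.7 to 73.2 CPM in APP (0.41 ± 0.29). Without the libraries numbered 57 to 60, 14 of 14 were higher. Within the numbers 3 to 21 it was 10 of 14 (median 0.34), and within 41 to 59 7 of 14 (0.01). The summed level was 1152, 967.6, 757.4 and 769.4 CPM in WT and 1710, 1205, 942.9, 832.6 and 665.7 CPM in APP, so that APP replicates 1 and 2 exceeded every WT library and APP replicate 5 lay below them all.

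Of 24 genes of lipid efflux, storage and the LXR receptor, 6 were higher and 18 lower in APP (median −0.20), and with LPS 5 were higher (−0.38). Abcg1, a cholesterol exporter, was at 40.3, 34.7, 21.7 and 19.6 CPM in WT and at 9.9, 14.6, 21.3, 10.2 and 13.8 CPM in APP. All APP libraries but replicate 3 lay below every WT library, and the log2 difference was −1.06 ± 0.44 (unadjusted p = 0.0244, adjusted p = 1 in edgeR's test). Abca1, its relative, which was added after its value was seen, differed by −0.26 ± 0.27. With LPS, Abcg1 differed by −0.24.

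Alzheimer risk genes of myeloid cells counted 5 higher and 21 lower of 26, with a median of −0.11, and 7 higher with LPS. Ptk2b, a kinase of cell adhesion, had the largest size, at 48.5, 24.4, 29.6 and 19.2 CPM in WT and 19.5, 26.1, 9.76, 11.7 and 2.47 CPM in APP (−1.13 ± 0.62). Cd33, an inhibitory lectin, differed by −0.54 ± 0.37. The summed level of this list ran from 5684 to 10865 CPM in WT and from 4317 to 8599 CPM in APP, with WT replicate 4 and APP replicate 5 lowest in each. Lysosomal genes stood at 24 higher and 38 lower of 62 (median −0.05), and 47 of the 62 had an interval within 2-fold. Within the numbers 3 to 21, 31 of the 62 were higher (0), and within 41 to 59 it was 10 (−0.28). With LPS, 10 of the 62 were higher (−0.18). Of 35 phagocytic receptors and bridging molecules 11 were higher (−0.13), among them Itgav, an integrin chain (0.68 ± 0.36), while Mertk, a receptor for dying cells, differed by −0.59 ± 0.49.

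Inflammatory and interferon genes varied widely between libraries of 1 genotype. Il1b was at 14, 10.7, 61.6 and 70.9 CPM in WT and at 14.8, 26.1, 6.36, 52.1 and 131 CPM in APP. In both genotypes the libraries numbered 41 to 59 were the higher ones, and the genotype difference was 0.23 ± 0.63. Tnf differed by 0.22 ± 0.34. Of 25 cytokine and chemokine genes 11 were higher in APP (median −0.01), and 4 had an interval within 2-fold. Cxcl5, a neutrophil chemokine, had the largest log2 difference of any abundant gene at 2.96 ± 1.85, with 428 CPM in APP replicate 5 and 0 to 19 CPM in the other APP libraries; without that library it was −0.73. Of 40 interferon-stimulated genes 24 were higher in APP with all libraries (median 0.08), but 7 without the libraries numbered 57 to 60 (−0.30), and 10 within the numbers 3 to 21 against 33 within 41 to 59. Their summed level was 2551, 2689, 4859 and 4046 CPM in WT and 2169, 2604, 2282, 4735 and 8076 CPM in APP.

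Cell division genes turned in the same way. Of 12 members, 11 were higher with all libraries (median 0.23) and 5 without the libraries numbered 57 to 60 (−0.05). Top2a, which untangles replicated DNA, was at 16.9, 32.7, 30.5 and 27.2 CPM in WT and at 50.7, 18.5, 15.6, 15.3 and 135 CPM in APP. APP replicates 1 and 5 were above every WT library, APP replicate 2 was above WT replicate 1 alone, and APP replicates 3 and 4 were below every WT library. The log2 difference of Top2a was 0.81 ± 0.73, and −0.08 without the libraries numbered 57 to 60.

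Markers of other brain cells were present at unequal levels. Pericyte, smooth muscle and fibroblast markers counted 17 of 23 higher in APP (median 0.24) and 12 of 23 (0.02) without the libraries numbered 57 to 60. Col3a1, a fibrillar collagen, was at 313, 502, 229 and 299 CPM in WT and at 853, 565, 267, 291 and 962 CPM in APP (0.81 ± 0.43). The summed level of the 37 measured markers was 36259 to 49757 CPM in WT and 35017 to 60353 CPM in APP. Of this sum Lrrc17, the most abundant transcript of all, was 30949 to 38422 CPM in WT and 21313 to 52606 CPM in APP. Most of the sum thus comes from 1 gene, and it is not taken as a measure of such cells. The part of such cells in any genotype difference was not tested.

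Of 7 astrocyte markers at 20 CPM or more, 6 were higher in APP (median 0.47). Within the numbers 3 to 21 it was 6 of 7 (0.78), and within 41 to 59 it was 3 of 7 (−0.05). Sums over all measured members were 466 to 975 CPM in WT and 560 to 1390 CPM in APP. The astrocyte-defining genes Gfap and Aqp4 were at 0 in 2 and 3 of 4 WT libraries and in 3 and 3 of 5 APP libraries. Gfap reached 2.89 CPM in WT and 9 CPM in APP, and Aqp4 reached 1.06 CPM in WT and 36.8 CPM in APP. Neuron markers summed to 212 to 232 CPM in WT and 175 to 455 CPM in APP, and Rbfox3, a nuclear marker of neurons, was at 0 in all 9 libraries. Neuron markers counted 5 of 5 higher in APP (median 0.34), and 3 of 5 within the numbers 41 to 59. Oligodendrocyte lineage markers summed to 73.4 to 273 CPM in WT and 72.8 to 295 CPM in APP. They counted 3 of 3 higher (median 0.14), and 0 of 3 (−0.17) without the libraries numbered 57 to 60. Border-associated macrophage markers counted 2 of 15 higher (median −0.10), and 1 of 15 (−0.26) without the libraries numbered 57 to 60, with sums of 2854 to 9445 CPM in WT and 2306 to 9630 CPM in APP. Lymphocyte markers stayed at or below 41.2 CPM in sum.

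The other lists also held no called gene. Members higher in APP were 13 of 24 amyloid receptors and degrading enzymes (median log2 difference 0.05), 9 of 21 for Trem2 and its signalling partners (−0.03), 7 of 18 for complement (−0.07; 4 of 18 and −0.12 without the libraries numbered 57 to 60) and 22 of 33 for NF-kB and LPS-response effectors (0.08). Antigen presentation counted 9 of 17 for class I (0.01; 6 of 17 and −0.09 without those libraries) and 2 of 5 for class II (−0.15). Metabolic and stress lists counted 12 of 20 for glycolysis (0.08), 17 of 31 for oxidative stress and metallothioneins (0.03) and 12 of 28 for immediate early and heat shock genes (−0.04). Glycolysis counted 15 of 20 within the numbers 3 to 21 and 8 of 20 within 41 to 59. For oxidative stress and metallothioneins it was 23 of 31 and 9 of 31. Monocyte and neutrophil markers counted 6 of 8 (0.15) and endothelial markers 2 of 6 (−0.24).

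**Figure D5:**
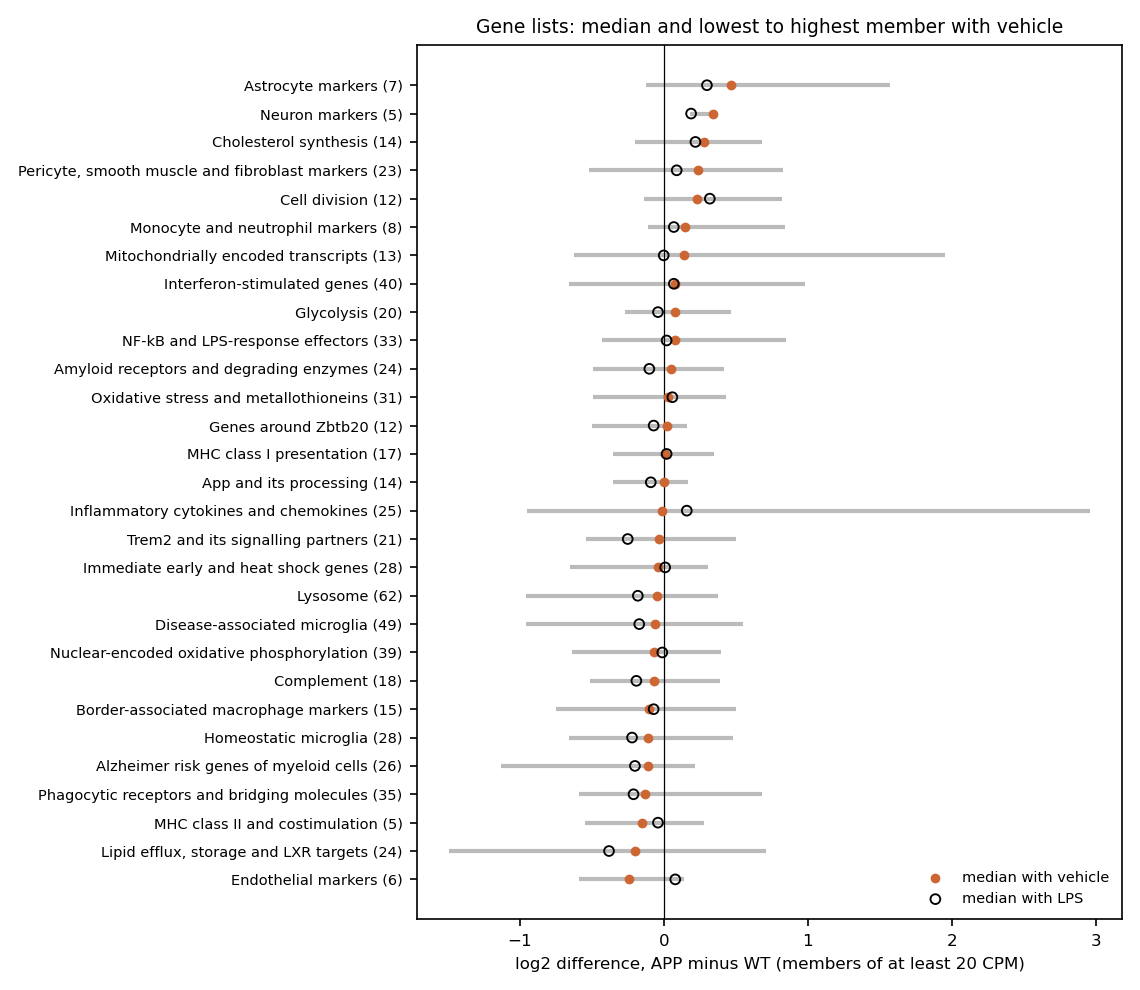
Median log2 difference between APP and WT for members of at least 20 CPM of each list with 5 or more such members, with vehicle (orange) and with LPS (open circles), and a grey bar from the lowest to the highest member with vehicle. Medians with vehicle run from −0.24 for endothelial markers to 0.47 for astrocyte markers, and all bars cross 0 except that of neuron markers.

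Of the 8 sparse genes named here, the 4 of smallest p in each direction, 7 were at 0 throughout 1 genotype. Flrt3, an adhesion protein, was at 0 in all 4 WT libraries and at 0.653, 1.33, 3.4, 1.5 and 6.12 CPM in APP, at least 84-fold higher than a floor of 3 counts over the WT group (unadjusted p = 0.000891, adjusted p = 1 in edgeR's test). Ska3, a kinetochore protein, was at 0 in WT and at 2.33 to 5.32 CPM in all 5 APP libraries, at least 118-fold higher. Pomgnt2, which elongates sugars on dystroglycan, was at 0 in WT and APP replicate 4 and at 1.71 to 4.24 CPM in the others. With LPS these 3 genes differed by 0.76, 0.02 and −0.56 on the log2 scale between genotypes. Flrt3 and Pomgnt2 were then detected in 4 and 5 of 5 WT libraries. Ska3 with LPS was at 0.0479, 0, 3.01, 8.33 and 3.11 CPM in WT and at 0, 0, 0, 4.07 and 10.6 CPM in APP.

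In the lower direction Pira1, an immunoglobulin-like receptor whose close relatives make its counts uncertain, was at 8.73 and 40.5 CPM in WT replicates 2 and 3 and at 0 in the other 7 libraries. Ccnb1ip1, an enzyme of meiotic recombination, was at 3.14, 11, 3.02 and 0 CPM in WT and at 0 in all APP libraries, at least 163-fold lower against the floor over the APP group. Ksr2 and Stk32c, both of the kinase family, were at 0 in APP and in 1 of 4 WT libraries each, with the rest at 1.06 to 6.91 CPM. Pafah2, a hydrolase of oxidised phospholipids, was the one leading sparse gene detected in every library, at 7.89, 4.94, 11 and 8.79 CPM in WT and at 21.5, 31, 23, 17 and 12.2 CPM in APP. Its ranges do not overlap, the log2 difference was 1.36 ± 0.39 (unadjusted p = 0.00205, adjusted p = 1), and with LPS it was −0.20.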

How the data were processed

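RNA 3′ end libraries from cultured mouse microglia were deposited by the authors as estimated counts per gene symbol; the submitters' processing notes name FastQC, Trimmomatic, kallisto and DESeq2, while for build, annotation and collapsing of molecular identifiers the entry is: not given in the sources used here. Each library lists 16941 symbols, and the deposited estimated counts were already whole. edgeR 4.0.16 (R 4.3.3) fitted all 19 libraries together with TMM scaling, filterByExpr and the quasi-likelihood test, with Benjamini-Hochberg adjustment over 14113 genes and calls at an adjusted p under 0.05. CPM uses TMM-scaled totals, and SE and 95% intervals come from that fit. Similarity and principal components used log2 CPM with a prior of 2. The fit was also run on simulated data, and the outcome is not reported or relied on here. Coordinates come from GENCODE M21 (GRCm38), which matched 15776 symbols. Named genes were the 10 of smallest p per direction at 20 CPM or more, 4 per direction below, up to 3 per list, and a fixed set of amyloid, state and sex-linked genes; some of these genes are not reported here. Members and lists were chosen with earlier results of these data known. Alternatives covered scaling, filter, tool (DESeq2 1.42.0, limma 3.58.1), covariates and left-out libraries.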

Additional observations from a re-analysis of the deposited data

Results flagged for a closer look

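In 317 sets of 4 or 5 vehicle libraries, 1 for each named gene or list sum and group, 28 were flagged by Dixon's criterion. It marks a highest or lowest library far from the others, and chance meets it in about 1 of 20 independent normal sets. CPM need not be normal, and sets drawn from the same libraries are not independent, so the 28 were not weighed against that rate. APP replicate 5 accounted for 12 of the 28. It was the lowest APP library in Itm2b (1158 CPM, others 2524 to 2907), Irf8 (15 CPM, others 53.1 to 68.1) and Atp6ap1 (112 CPM, others 195 to 217). The same library was lowest in the summed CPM of App and its processing (4512), of Alzheimer risk genes (4317) and of lysosomal genes (14684). It was the highest APP library in Cxcl5 (428 CPM, others 0 to 19), Axl (145 CPM), Mcm7 (159 CPM, others 18 to 23), Mcm4 (63.9 CPM), Vcan (199 CPM) and the sum of immediate early and heat shock genes (12674 CPM).

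APP replicate 1 stood high in Ide (47.7 CPM, others 18.3 to 25.4), Npr3 (365 CPM), Stmn2 (199 CPM, others 45.9 to 76.7) and the sum of astrocyte markers (1390 CPM). APP replicate 2 stood high in Cd93 (140 CPM) and the Y-linked Uty (22.2 CPM). APP replicate 3 was high in Tnf (51.3 CPM) and the sum of genes around Zbtb20 (1834 CPM), and low in Phax (59.2 CPM). APP replicate 4 was high in Ccl6 (4470 CPM, others 416 to 1174), mt-Atp8 (690 CPM) and Ccr1 (40 CPM), and low in Lrrc14 (21 CPM, others 42.9 to 50.7). In WT, replicate 4 was high in Cxcl5 (41.6 CPM) and Slc7a2 (284 CPM), and replicate 3 was low in Mcm4 (7.04 CPM, others 22.8 to 25.4).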

How the results depend on the processing

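With vehicle, 0 genes were called in every setting run except DESeq2, including each left-out replicate (0 to 0), other scalings, no filter, limma, sex and library number terms, and 2 settings chosen after seeing the data. Unadjusted p-values under 0.05 numbered 142 with the 9 vehicle libraries alone and 775 without a filter. DESeq2 called 64 genes (54 higher, 10 lower), with a median level of 0.591 CPM; 63 had a library at 0, and 0 reached 20 CPM. The cause was not tested. Among named genes DESeq2 called Flrt3, Pomgnt2, Pafah2, Ska3 and Pira1. With LPS, DESeq2 called 69 genes, limma voom 1 (Fcna) and the fit without the libraries numbered 57 to 60 called 1 (P2ry12), and for the interaction DESeq2 called 99; the cause was not tested. All 20 leading genes kept their sign in the settings that gave them a value, and the lowest adjusted p among them was 0.0789 (Slc25a1, DESeq2). The settings refit the libraries from which these genes were picked, so the kept sign is no further support for them.

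With the replicate number as a replicate block, 0 genes were called, and 146 genes of at least 20 CPM (2.35%) had an unadjusted p under 0.05 against 67 (1.08%) without it. Same-numbered WT and APP vehicle libraries had correlated deviations of 0.028, 0.254, 0.23 and 0.094, and no WT library correlated best with its own number, so the numbers were not taken as pairs. A gene at 0 counts is bounded by 3 counts, 0.0963 to 0.167 CPM per vehicle library.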
